A study of Mus musculus with 30 samples.

Results

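Feeding and arousal are set in part by small groups of hypothalamic neurons that release neuropeptides. In the arcuate nucleus, Pomc neurons make the precursor of α-MSH, which lowers food intake through the melanocortin receptors Mc3r and Mc4r, while neighbouring neurons that make both Agrp, an antagonist of these receptors, and Npy raise it. Cartpt encodes a peptide that is also made by Pomc neurons, and Pmch (melanin-concentrating hormone) and Hcrt (hypocretin, or orexin) mark separate neuron populations of the lateral hypothalamus that act on feeding and on sleep and wakefulness.

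The 8 genes Pomc, Agrp, Npy, Cartpt, Pmch, Hcrt, Mc3r and Mc4r were taken by their gene names on the hypothalamus arrays, which gave 10 of 41174 probes, 2 each for Cartpt and Mc3r and 1 for every other gene. The same probes were found on the eye arrays by probe name. The mice were adult males, either wild type (WT) or knockouts of the clock gene Period3 (Per3-/-), littermates on a C57Bl/6J background. All were held in 3.5 h of light alternating with 3.5 h of darkness for 17 ultradian cycles and were killed in the second hour of light of the last one. Arrays of 60-mer probes with a single dye measured a dissected block of hypothalamus in 8 WT and 8 Per3-/- mice and the whole eye in 7 WT and 7 Per3-/- mice. A level below is the log2 probe intensity minus the log2 75th percentile of its array, so that 0 is the 75th percentile and 1 unit is a 2-fold step. Levels of different probes were not set against each other, because probes differ in brightness. A block or an eye holds many cell types, and fewer cells of a type and less RNA per cell could not be told apart.

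The labelled tissues matched their markers. The eye genes Gnat1, Sag, Pde6b, Cryaa and Crygs were each lower in the hypothalamus than in the eye, and 5 of 6 general hypothalamic genes were higher, Otp being well above background on no array of either tissue. The 75th percentile intensity lay between 1408 and 2207 in the hypothalamus and between 1131 and 1644 in the eye, with 67.98% to 80.8% of probes well above background on an array. The probe of the targeted gene Per3 had a median level of -3.45 in WT and -3.99 in Per3-/- blocks and remained well above background in all of them. Per the study, the targeting cassette took the place of exon 3 and of the intron after it. Which exon the probe reads was not determined here, so that it was not used to check the genotype labels.

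Arrays of 3 mice stood apart. The block of Per3-/- mouse 1 carried high levels of all 7 pituitary genes measured (Gh, Prl, Tshb, Cga, Lhb, Fshb and Pitx1), with a summed level of 793.7 times the 75th percentile, against 0.939 to 1.96 in the other Per3-/- blocks. Among WT blocks the sum was 41.3 in mouse 5, mainly through Gh and Prl, and at most 2.66 in the rest. Tshb, Cga and Lhb of WT mouse 5 also lay above those of every block other than Per3-/- mouse 1. The block of Per3-/- mouse 7 carried all 7 genes of an olfactory bulb list (Tbx21, Eomes, Cdhr1, Doc2g, Shisa3, Sp8 and Omp), with a summed level of 25.8 against 0.484 to 0.944 in the other 15 blocks. The eye of Per3-/- mouse 2 carried liver genes such as Alb and Ahsg, with a summed level of 57.4 over 6 genes against 0.387 to 4.96 in the other 13 eyes. The olfactory bulb and liver lists were written after these arrays had been seen. Results that rest on these arrays are given with and without them. WT mouse 5 was kept when they were left out, so that those genotype comparisons dropped Per3-/- arrays only. A cortex and striatum list of 6 genes had smaller differences. Its summed level was 1.64 in the block of Per3-/- mouse 6 and 1.14 in that of mouse 3, against 0.497 to 0.986 in the rest. These blocks were also kept, and the part of such RNA in the levels below was not tested.

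The probe sequences are shown for the genes whose results turn on what a single 60-mer reads. The Agrp, Npy and Cartpt probes cross an exon junction, as their positions span more genome than their 60 bases, so they read spliced transcript. Positions are those of the array design on mouse build mm9. The Pomc probe lies at chr12:3960413-3960472 on the plus strand, and its capitals mark the stop codon of the reading frame. The Agrp probe spans chr8:108091063-108091279 on the minus strand and the Npy probe chr6:49773743-49777505 on the plus strand. The 2 Cartpt probes span chr13:100668967-100669956 (probe A) and chr13:100668977-100669966 (probe B) on the minus strand, and the capitals mark the 50 bases that they share, so they are not independent measurements. The 2 Mc3r probes lie at chr2:172074725-172074784 (probe A) and chr2:172075265-172075324 (probe B) on the plus strand and do not overlap.
Pomc: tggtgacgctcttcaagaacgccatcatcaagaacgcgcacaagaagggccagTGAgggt
Agrp: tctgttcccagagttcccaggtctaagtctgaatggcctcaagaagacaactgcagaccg
Npy: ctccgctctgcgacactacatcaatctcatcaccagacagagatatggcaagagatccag
Cartpt probe A: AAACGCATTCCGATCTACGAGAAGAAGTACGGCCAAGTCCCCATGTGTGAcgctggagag
Cartpt probe B: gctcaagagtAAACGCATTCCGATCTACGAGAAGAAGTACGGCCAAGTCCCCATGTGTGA
Mc3r probe A: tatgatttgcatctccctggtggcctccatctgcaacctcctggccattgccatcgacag
Mc3r probe B: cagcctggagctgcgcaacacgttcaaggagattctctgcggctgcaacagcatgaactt

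**Figure D1:**
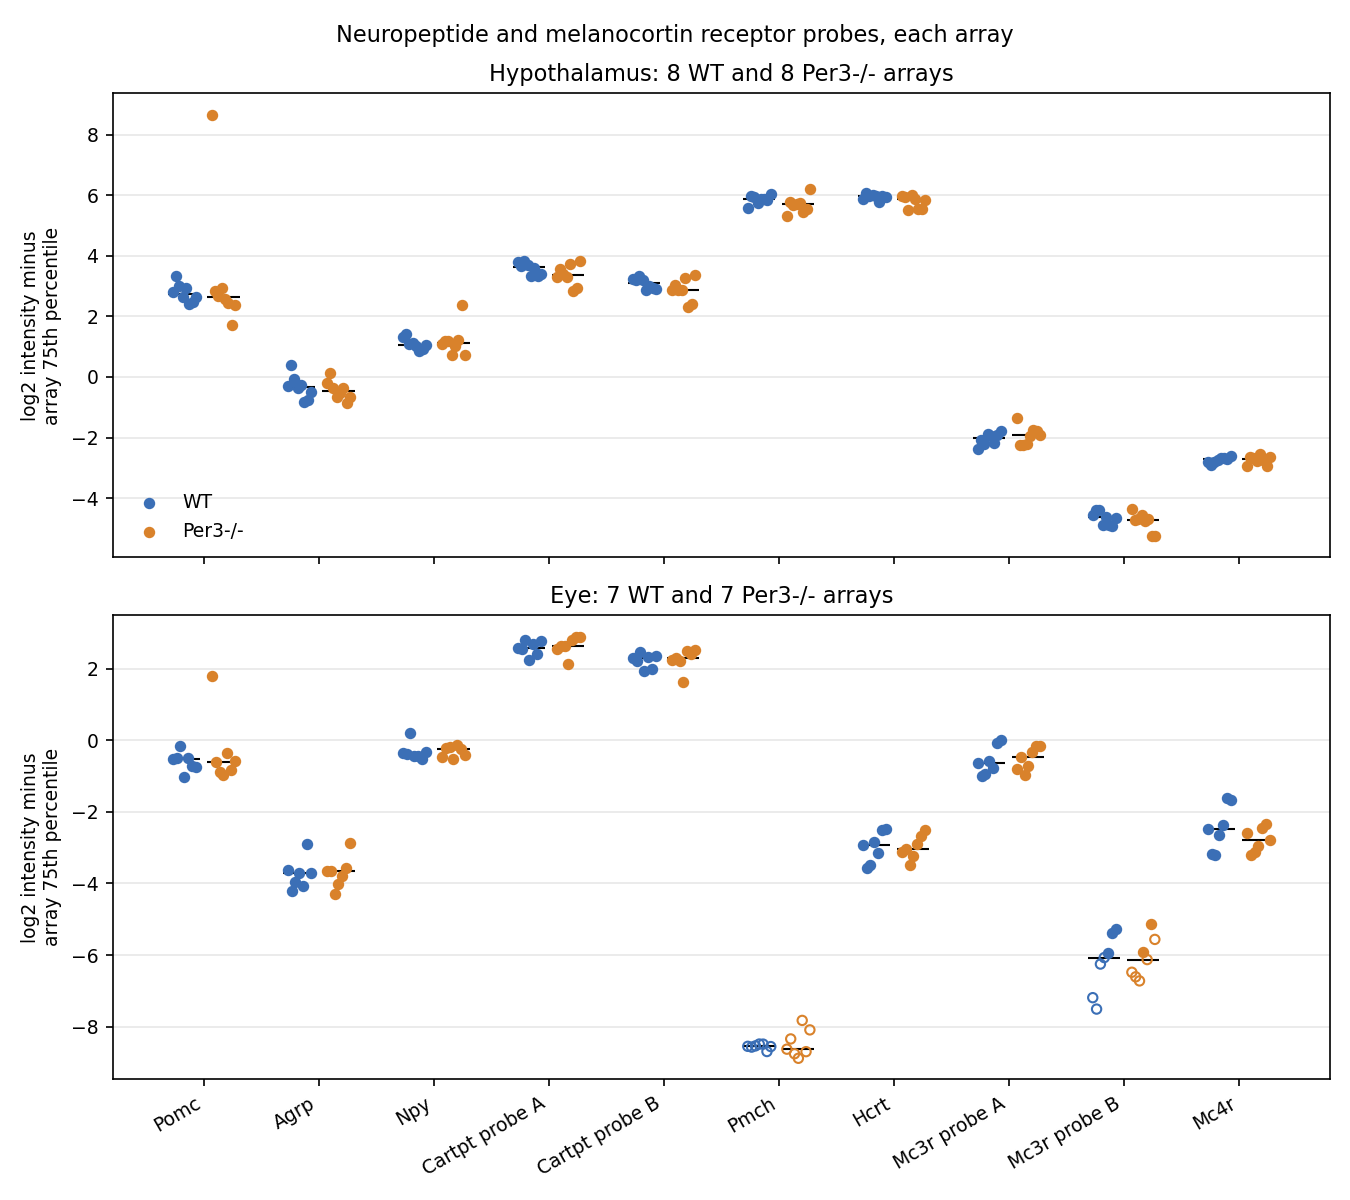
Level of each probe (vertical axis, log2 intensity minus the array's 75th percentile) on every hypothalamus array (top) and eye array (bottom), with WT in blue, Per3-/- in orange, and a bar at each group's median; open circles were not well above background. Pomc at 8.66 in 1 Per3-/- block and Npy at 2.37 in another stand above the other blocks, Pmch in the eye is open on all 14 arrays, and Mc3r probe B in the eye is open on 9 of 14 arrays.

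All 10 probes were well above background on every hypothalamus array. Pomc ranged from 2.41 to 3.34 with a median of 2.73 in WT blocks, and from 1.71 to 8.66 with a median of 2.63 in Per3-/- blocks. The value of 8.66 belonged to Per3-/- mouse 1, the block with high pituitary genes, and the next highest Per3-/- value was 2.93. WT mouse 5, whose Gh and Prl were also high, had an ordinary Pomc level of 2.94. Pomc is expressed by corticotrophs and melanotrophs of the pituitary as well as by arcuate neurons, and the share of pituitary RNA in the value of mouse 1 was not tested. The lowest Pomc level, 1.71, was that of Per3-/- mouse 7.

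Agrp ranged from -0.81 to 0.38 with a median of -0.33 in WT blocks and from -0.86 to 0.14 with a median of -0.45 in Per3-/- blocks. The groups overlapped over nearly their whole range, and mouse 2 had the highest level in each genotype. Npy ranged from 0.87 to 1.42 (median 1.06) in WT blocks and from 0.73 to 2.37 (median 1.13) in Per3-/- blocks. The highest Npy level was that of Per3-/- mouse 7, the block with olfactory bulb genes, and the other 7 Per3-/- blocks lay at or below 1.22. Npy is also made by interneurons of the olfactory bulb, and their part in the value of mouse 7 was not tested. In the same block Agrp, which arcuate neurons make together with Npy, was at its lowest level.

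Cartpt read by probe A ranged from 3.34 to 3.84 (median 3.64) in WT and from 2.84 to 3.82 (median 3.35) in Per3-/- blocks. Pmch ranged from 5.56 to 6.03 (median 5.87) in WT and from 5.31 to 6.20 (median 5.70) in Per3-/- blocks. Hcrt ranged from 5.77 to 6.08 (median 5.96) in WT and from 5.50 to 5.99 (median 5.87) in Per3-/- blocks. For each of these peptides the genotypes overlapped, with the wider range in Per3-/- blocks. The receptors were read at levels below 0, from -2.38 to -1.37 for Mc3r probe A, from -5.26 to -4.36 for Mc3r probe B and from -2.96 to -2.53 for Mc4r over the 16 blocks.

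The spread between blocks differed among the genes. The SD within genotype (n = 16 arrays) was 1.58 for Pomc, 0.39 for Npy and 0.35 for Agrp, against a median of 0.13 over the 27154 probes that were well above background on every hypothalamus array. Without Per3-/- mice 1 and 7 the SD of Pomc was 0.27 and that of Npy 0.21, while that of Agrp remained 0.35, and 94.97% of the probes then varied less than Agrp. The highest of these 14 Agrp levels was 2.28-fold the lowest. Over all 16 blocks Cartpt had SDs of 0.28 (probe A) and 0.29 (probe B), and the Mc3r probes 0.26 and 0.27. The lateral hypothalamic peptides varied less over the 16 blocks, with SDs of 0.22 for Pmch and 0.16 for Hcrt. The highest Hcrt level over all 16 blocks was 1.49-fold the lowest. Without mice 1 and 7 the SD of Pmch was 0.20, close to that of Npy, and that of Hcrt 0.15. Mc4r, at 0.12 over the 16 blocks, was the probe below the median of all probes. The SDs are descriptions and were not compared by a test.

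**Figure D2:**
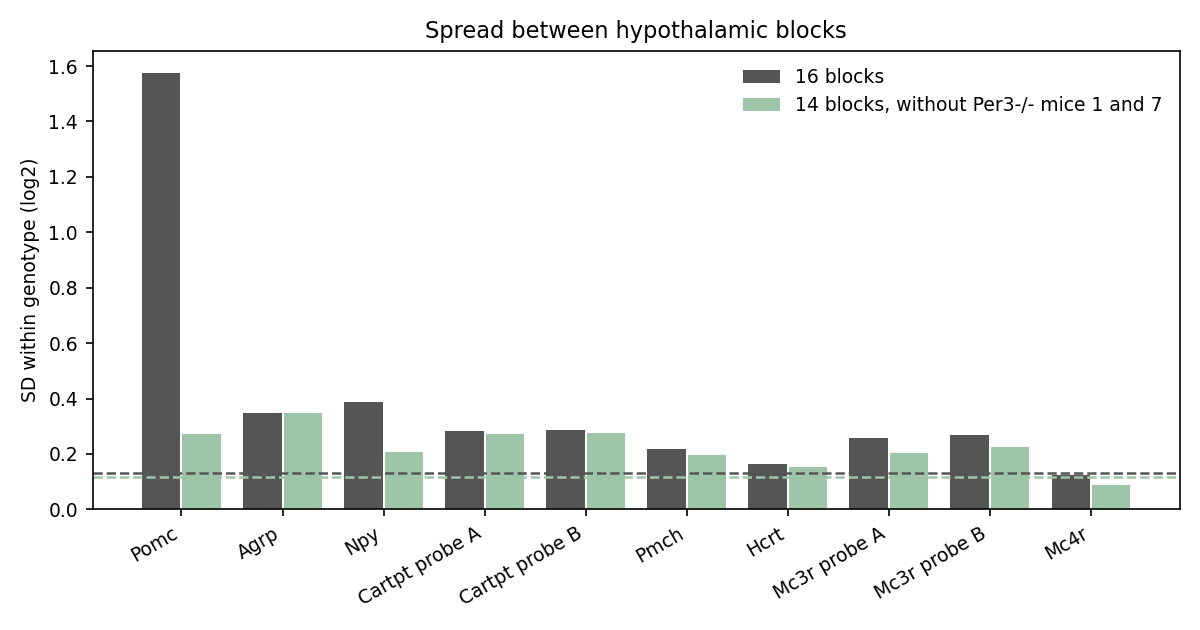
SD within genotype of each probe between hypothalamic blocks (vertical axis, log2), over 16 blocks (grey bars) and over 14 blocks without Per3-/- mice 1 and 7 (green bars); dashed lines give the median SD of all probes well above background in the same blocks. Pomc falls from 1.58 to 0.27 without the 2 blocks, while Agrp stays at 0.35 and Hcrt and Mc4r lie closest to the dashed lines.

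The first comparison asked whether loss of Per3 changed these genes in the hypothalamus. None of the 10 probes passed limma's test at an adjusted p under 0.05, and 0 did so at an unadjusted p under 0.05 or by the methods' t-test after Benjamini-Hochberg adjustment. Of all 41174 probes, 0.0413% were called. The largest difference was that of Pomc, 0.49 ± 0.75 (Per3-/- minus WT on the log2 scale, SE, 8 against 8), which was -0.14 ± 0.14 without mice 1 and 7. Npy likewise went from 0.10 ± 0.18 to -0.078 ± 0.11, and Mc3r probe A from 0.12 ± 0.12 to 0.00055 ± 0.11. Hcrt had a difference of -0.16 ± 0.08 (limma adjusted p = 0.991, exact permutation p = 0.078, two-sided), Pmch of -0.18 ± 0.11, Cartpt of -0.23 ± 0.14 (probe A) and Agrp of -0.10 ± 0.17. Without mice 1 and 7 these were -0.16 for Hcrt, -0.097 for Pmch, -0.14 for Cartpt probe A and -0.071 for Agrp. Mc3r probe B gave -0.12 ± 0.13 and Mc4r -0.0014 ± 0.063, against -0.11 and 0.070 without the 2 mice. The median over the 10 probes was -0.11, beside -0.01 over all probes. Without mice 1 and 7 the 95% intervals of the 10 differences lay within -0.45 and 0.31, so that larger changes than these were outside the intervals of those blocks.

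In the eye, Per3-/- and WT mice were compared in the same way. No member probe was called, adjusted or unadjusted, with 0.0194% of all probes called. Pomc ranged from -1.04 to -0.16 (median -0.54) in WT eyes and from -0.97 to 1.81 (median -0.62) in Per3-/- eyes. The level of 1.81 was that of mouse 2, the eye with liver genes, and the other 6 Per3-/- eyes lay at or below -0.35. The hypothalamic Pomc level of the Per3-/- mouse of the same number was 2.83, within the range of the WT blocks. The Pomc difference was 0.25 ± 0.36 (SE) and -0.11 ± 0.14 without that eye, and the part of the liver RNA in it was not tested. The other differences ranged from -0.33 ± 0.26 for Mc4r to 0.15 ± 0.37 for Mc3r probe B, and from -0.36 to 0.22 for the same probes without mouse 2. Mc4r, Hcrt, Agrp and Mc3r moved with the slide in the eye. The 4 eyes of slide 4 had a mean Mc4r level of -2.10 against -3.17 for the 4 of slide 2, and a mean Hcrt level of -2.54 against -3.39. Each of these slides held 2 WT and 2 Per3-/- eyes.

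**Figure D3:**
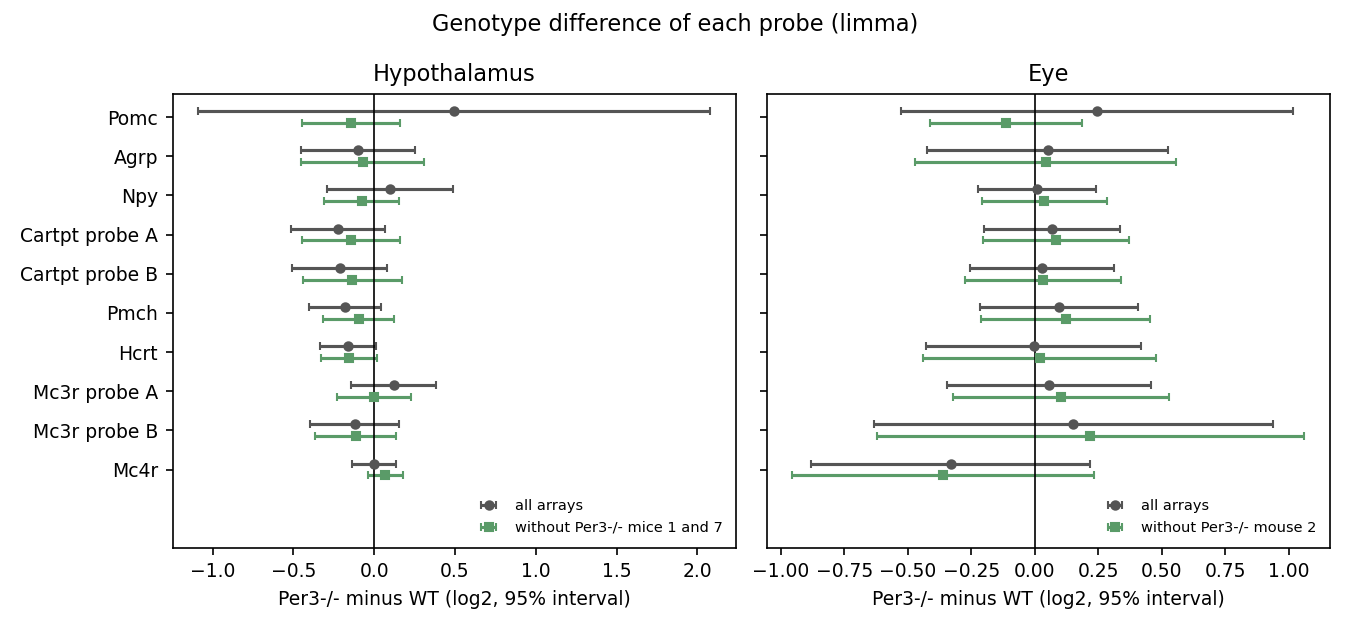
Difference Per3-/- minus WT of each probe (horizontal axis, log2) with its 95% interval from limma, in the hypothalamus (left, 8 against 8) and the eye (right, 7 against 7); circles use all arrays and squares leave out the arrays that stand apart. Every interval spans 0, and the Pomc interval in the hypothalamus narrows from -1.09 to 2.08 down to -0.44 to 0.16.

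The genotype difference was also compared between the tissues. None of the 10 probes had a genotype by tissue difference that passed the test, adjusted or unadjusted (0.00486% of all probes called). The largest was that of Mc4r, 0.33 ± 0.25 (SE, hypothalamus minus eye).

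The tissues themselves differed in most of these genes. Between hypothalamus and eye, 8 of the 10 probes (among them Mc3r probe B, well above background on few eye arrays) were higher in the hypothalamus, where 35.2% of all probes were called higher, and 1 was lower, where 47.9% of all probes were called lower. The median difference over the 10 probes was 1.44 on the log2 scale, against -0.19 over all probes. Tissue, slide, scan and array design file cannot be told apart, since each slide held a single tissue. Pmch had the largest difference. It was well above background on none of 14 eye arrays. With the eye level counted as the lowest signal well above background on each array, it was 16011-fold higher in the hypothalamus. That count is not a strict limit, as Mc3r probe B was not well above background at -5.56 in the eye of Per3-/- mouse 8. The limma adjusted p of Pmch was 2.6e-39. Hcrt was well above background on all 14 eye arrays, between -3.56 and -2.48, and was 462.4-fold higher in the hypothalamus (8.85 ± 0.10, SE, limma adjusted p = 5.7e-33). Agrp lay between -4.31 and -2.87 in the eye and was 10.04-fold higher in the hypothalamus (3.33 ± 0.14). Pomc was 11.1-fold higher (3.48 ± 0.43), a log2 difference that was 3.36 without the 3 arrays that stood apart.

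Npy and Cartpt differed least among the peptides. The Npy level lay between -0.53 and 0.21 in the eye and was 2.74-fold higher in the hypothalamus (1.46 ± 0.11, limma adjusted p = 3.8e-13). Retinal amacrine cells are a known source of Npy. Cartpt lay between 2.14 and 2.90 in the eye by probe A and was 1.81-fold higher in the hypothalamus (0.86 ± 0.09). Probe B gave 1.66-fold (0.73 ± 0.10). Cartpt in the eye is known from retinal ganglion and amacrine cells.

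Of the melanocortin receptors, Mc3r read by probe A was lower in the hypothalamus than in the eye by 2.73-fold (-1.45 ± 0.11, limma adjusted p = 2.9e-13), with levels of -2.38 to -1.37 in blocks and -1.01 to 0.02 in eyes. Read by probe B, which lies further along the gene, the fitted difference, hypothalamus minus eye, was 1.42 ± 0.19 (limma adjusted p = 5.2e-08). Probe B was well above background on 5 of 14 eye arrays, so that its eye level rests partly on values at background, and with the normexp background correction its difference was 0.08 and not called. Mc4r had a difference of -0.12 ± 0.12 (limma adjusted p = 0.352), and its 95% interval ran from -0.38 to 0.13.

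Other genes of these pathways were read for context, from a list of 50 genes of which 47 were on the arrays. The list holds peptide-processing enzymes, receptors, leptin and insulin signalling genes and further hypothalamic peptides. In the hypothalamus 0 of 47 passed the genotype test in either direction and 2 had an unadjusted p under 0.05, as did 1161 of all 41174 probes. In the eye 0 of 47 passed and 1 had an unadjusted p under 0.05, as did 743 of all probes. Between tissues 29 were higher and 11 lower in the hypothalamus, beside the 35.2% and 47.9% of all probes given above. Among the receptors of the member peptides, Npy2r, an Npy autoreceptor, was well above background on all 16 hypothalamus arrays and on no eye array. It was 194-fold higher in the hypothalamus by the count used for Pmch, which is not a strict limit. Hcrtr2, a hypocretin receptor, showed the same pattern at 29.1-fold. Npy5r (5.29 ± 0.22) and Npy1r (2.74 ± 0.09) were also called higher in the hypothalamus, but they were well above background on only 1 and 8 of the 14 eye arrays, so that these differences rest partly on eye values at background. Hcrtr1, the other hypocretin receptor, had a difference of -0.01 ± 0.07. The receptors Mchr1 (-4.54 ± 0.10), Mc1r (-3.23 ± 0.08) and Mc2r (-1.84 ± 0.21) were lower in the hypothalamus than in the eye. Mchr1 binds the Pmch product, whose transcript was not above background in the eye. Mc5r and Npy6r were well above background on 1 hypothalamus array each.

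Whether the genes varied together from block to block was examined over the 16 hypothalamic blocks, as deviations from the genotype means, in 28 gene pairs. No pair passed after Benjamini-Hochberg adjustment over the 28 (lowest adjusted p = 0.474), and 1 had an unadjusted permutation p under 0.05, Npy with Mc4r (Pearson r = -0.59, p = 0.032). Per3-/- mouse 7 had both the highest Npy and the lowest Mc4r level. For Npy with Mc4r, r was -0.40 (permutation p = 0.170) without Per3-/- mice 1 and 7. It was -0.07 (permutation p = 0.844) with slide means also taken out, and -0.82 (exact permutation p = 0.011, adjusted p = 0.091) within WT mice alone. Pomc and Agrp had r = 0.36 (p = 0.169) and rho = 0.47 (p = 0.012, adjusted p = 0.330). Agrp and Npy had r = 0.07 (p = 0.797) and rho = 0.44 (p = 0.093). Both pairs include a gene that an array standing apart pulled away. The ranks behind rho were those of deviations from genotype means. In Per3-/- blocks the mean was 3.28 against a median of 2.63 for Pomc, and 1.19 against 1.13 for Npy. Over the 16 blocks the rho values of these genes, here and below, are therefore not free of mice 1 and 7. Without Per3-/- mice 1 and 7, an analysis chosen after these blocks had been seen, Pomc and Agrp had r = 0.78 (n = 14, permutation p = 0.0025, adjusted p = 0.035) and rho = 0.69 (p = 0.013, adjusted p = 0.176). Agrp and Npy then had r = 0.78 (p = 0.00069, adjusted p = 0.019) and rho = 0.73 (p = 0.0051, adjusted p = 0.141), so that both pairs passed by Pearson's r and neither by Spearman's rho. Mice 1 and 7 were also the 2 farthest from the median of Pomc. In the setting that left out the 2 farthest mice of each pair, Pomc and Agrp thus had the same r, with an adjusted permutation p of 0.069. When the 2 of these 14 mice farthest from the median of the first gene were also left out, r was 0.55 (permutation p = 0.082) for Pomc and Agrp and 0.70 (p = 0.0044, adjusted p = 0.123) for Agrp and Npy, so that the first relation rests partly on those 2 mice. Within WT mice alone r was 0.98 for Pomc and Agrp (n = 8, exact permutation p = 7.4e-05, adjusted p = 0.0021) and 0.86 for Agrp and Npy (exact permutation p = 0.0068, adjusted p = 0.091). Within Per3-/- mice alone, mice 1 and 7 included, the values were 0.40 (exact permutation p = 0.266) and -0.27 (exact permutation p = 0.494).

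**Figure D4:**
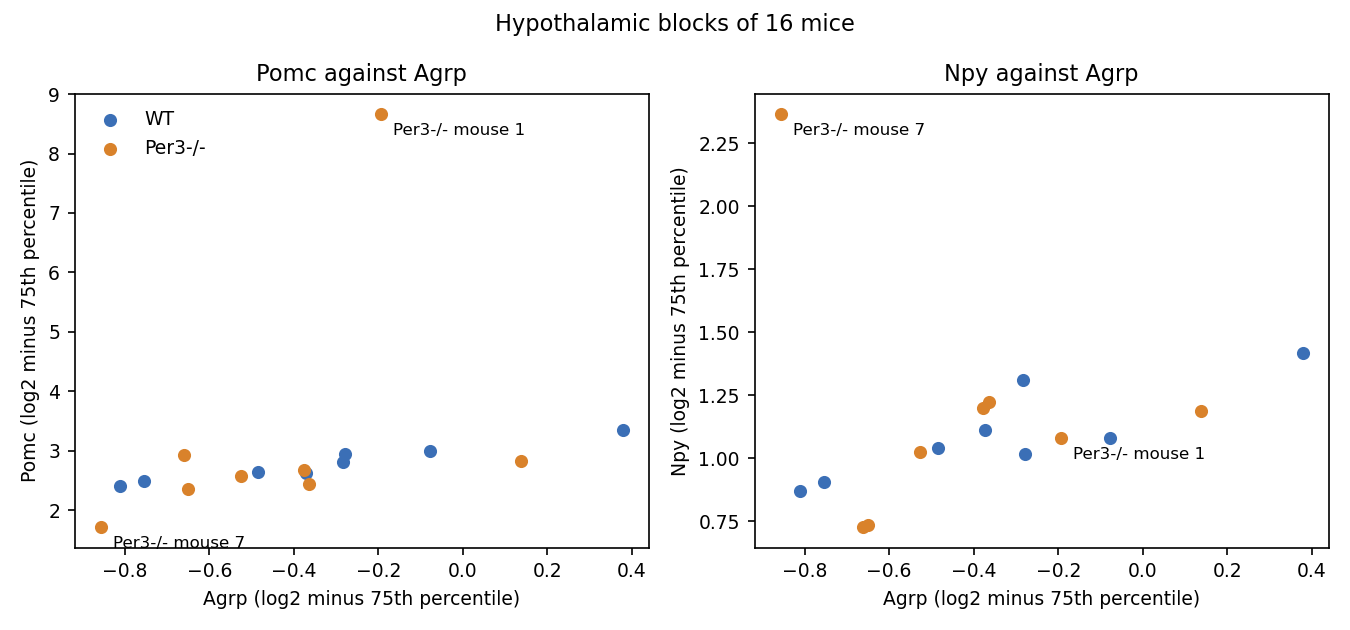
Pomc (left) and Npy (right) against Agrp in the 16 hypothalamic blocks, all as log2 intensity minus the array's 75th percentile, with WT in blue and Per3-/- in orange. Mouse 1 stands apart for Pomc at 8.66 and mouse 7 for Npy at 2.37, and over the other 14 blocks r is 0.78 for both pairs.

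The slides moved with these genes too. Each hypothalamus slide held 2 WT and 2 Per3-/- blocks of consecutive mouse numbers, and the mean Agrp level was 0.01 on slide 1, -0.37 on slide 2, -0.50 on slide 3 and -0.69 on slide 4. Mean Pomc was 4.41 on slide 1, which held Per3-/- mouse 1, and 2.81, 2.59 and 2.30 on slides 2, 3 and 4. Slide 4 held Per3-/- mouse 7, whose Pomc level was 1.71. With slide means taken out of the 14 blocks, r was 0.59 (permutation p = 0.070) for Pomc and Agrp and 0.55 (p = 0.012, adjusted p = 0.215) for Agrp and Npy, and no pair passed. Over all 16 blocks with slide means taken out, r was -0.13 (permutation p = 0.594) and 0.05 (p = 0.830). The permutations shuffled blocks within genotype but across slides. Every p-value given with slide means taken out therefore ignores the slide terms and may be too small. Slide and the order in which mice were numbered cannot be told apart.

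Lists of regional marker genes gave a measure of what each block held, in 40 relations of a gene to a list. None passed after adjustment over the 40 (lowest adjusted p = 0.064), and 7 had an unadjusted permutation p under 0.05. Agrp moved with the mean of 7 tuberal genes (Ghrh, Kiss1, Tac2, Tbx3, Bsx, Nr5a1 and Fezf1, of which Bsx was not above background on any block) with r = 0.70 (p = 0.002, adjusted p = 0.064) and rho = 0.71 (p = 0.0039). Without the 2 mice farthest from the median of the list r was 0.51 (permutation p = 0.076), and with slide means taken out 0.47 (p = 0.086). Pomc with the same list had r = 0.70 (p = 0.0032, adjusted p = 0.064), rho = 0.57 (p = 0.0024), 0.75 without the 2 farthest mice (p = 0.0016, adjusted p = 0.062), 0.59 with slide means taken out (p = 0.016) and 0.80 without mice 1 and 7 (p = 0.0016, adjusted p = 0.064). This relation was weaker with normexp, at r = 0.49 (permutation p = 0.126), and without mice 1 and 7 and the 2 farthest of the rest, at r = 0.58 (permutation p = 0.067). The tuberal list was not followed by arcuate genes alone. Hcrt, a lateral hypothalamic peptide, had r = 0.66 with it (permutation p = 0.014, adjusted p = 0.182). For Hcrt r was 0.63 with slide means taken out (permutation p = 0.0070) and 0.48 without mice 1 and 7 (permutation p = 0.080). Pomc with the pituitary list had r = 0.91 (p = 0.024, adjusted p = 0.210) and rho = 0.65 (p = 0.081), which rested on the 2 mice farthest from the median of the list, as r was 0.24 (permutation p = 0.407) without them. The choroid plexus list varied from 1.95 to 23.1 in summed level between blocks, and the suprachiasmatic and lateral hypothalamic lists from 8.29 to 12.6 and from 12.6 to 18.4. The part of the dissection in the spread of Agrp and Pomc was not tested.

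**Figure D5:**
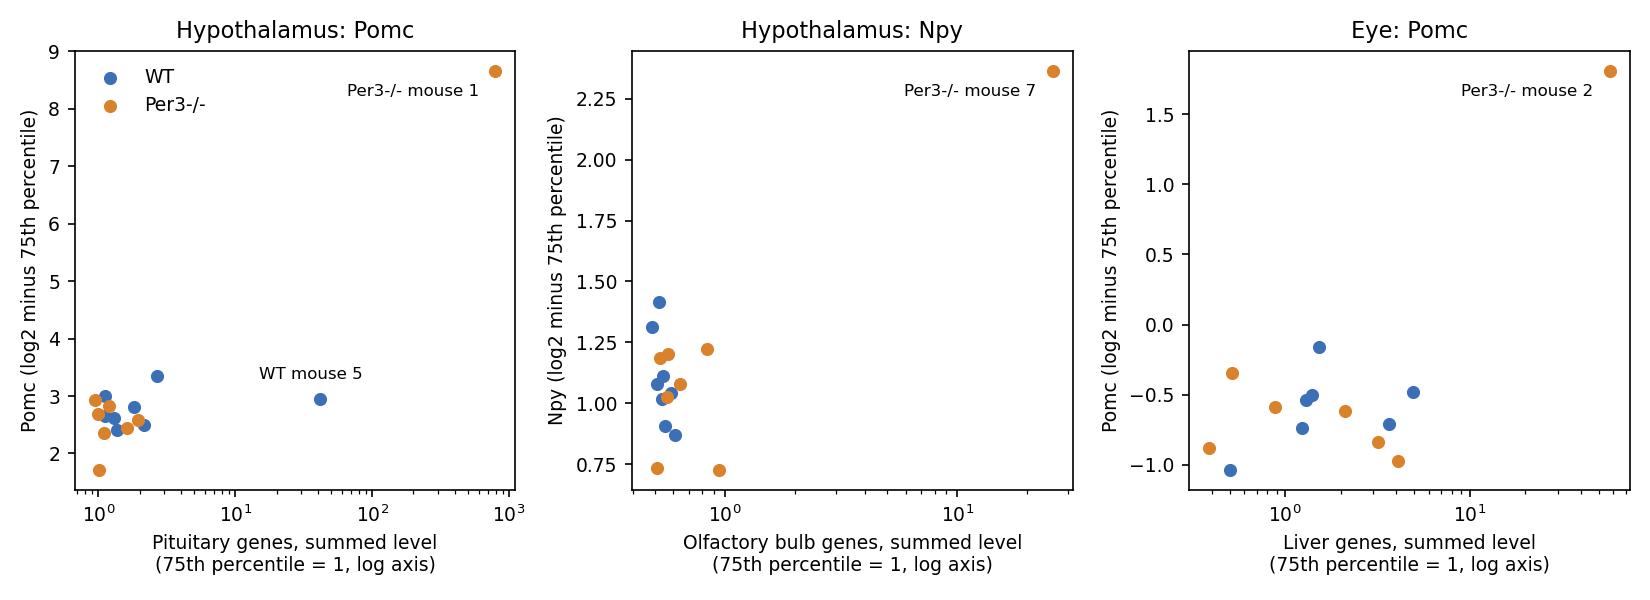
Level of Pomc or Npy (vertical axes, log2 intensity minus the array's 75th percentile) against the summed level of a marker list (horizontal log axes, in multiples of the 75th percentile), 1 point per array. Per3-/- mouse 1 has both the highest pituitary sum, 793.7, and the highest hypothalamic Pomc, mouse 7 the highest olfactory bulb sum, 25.8, and Npy, and the eye of mouse 2 the highest liver sum, 57.4, and eye Pomc; WT mouse 5 has a pituitary sum of 41.3 at a Pomc level of 2.94.

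For each gene, the probes of other genes whose levels followed it most closely were ranked by Pearson r of the deviations over the 16 blocks, among the 27154 probes well above background on all of them, as a description. The probes most like Agrp were 5730455P16Rik (r = 0.89), Tox4 (0.87) and Toe1 (0.86). Those most like Cartpt were Haus7 (r = 0.92), Slc1a6 (0.89) and Nup43 (0.87). For Pmch they were Cthrc1 (r = 0.91), Hs6st1 (0.88) and Mtmr4 (0.88), and for Hcrt Rap1gap, Ccdc159 and Anapc7 (each r = 0.86). Mc4r was followed most closely by Rbms3 (r = 0.90), Rab11fip5 (0.87) and an unnamed transcript (0.86). Its lowest levels, -2.96 and -2.94, were those of Per3-/- mice 7 and 1. For Pomc, Npy and Mc3r the highest ranks came with a gene that a block standing apart had pulled away. Pomc was matched by Elapor1, Bhlha15 and Upk3a (each r = 0.98), Npy by Arhgef17, Sec14l1 and Kctd12 (each r = 0.93) and Mc3r probe A by Gm2414 (0.94), Car7 (0.93) and Fstl3 (0.92). Without mice 1 and 7 none of the names remained among the top 3 of Pomc, Npy, Mc3r or Mc4r, while 5730455P16Rik and Tox4 remained for Agrp, Haus7 and Slc1a6 for Cartpt, Cthrc1 for Pmch and Rap1gap for Hcrt. The blocks left are part of the same 16, so a name that remained is no independent evidence. The top ranks of 27154 probes are high by selection, and no chance level was computed.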

How the data were processed

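Total RNA was labelled with Cy3 and hybridised to 4x44K mouse arrays. The deposited scanner files hold intensity values from the authors' Feature Extraction software, background-subtracted processed signals among them, and the authors' value table holds log2 values. Checked against the scanner files, this table equals the log2 processed signal minus the array's 75th percentile, centred on each probe's median within a tissue. The main values here were the former, before centring. Outlier spots and control spots were left out, and spots of one probe were averaged. Hypothalamus and eye files carry different design files, and gene names and positions (mm9) came from the former. 26918 probes could be named anew through RefSeq accessions.

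Genotypes were compared within a tissue with limma 3.58.1 (R 4.3.3), Benjamini-Hochberg adjusted over 41174 probes, and member probes also with an exact permutation test. Tissues were compared in a joint fit of the 30 arrays that treated arrays from one mouse as correlated (estimated at 0.059). An eye and a block of the same genotype and replicate number were taken as one mouse, which the labels do not state. Pearson and Spearman coefficients used 100000 permutations within genotype, with 1e-05 as the smallest p. The permutations crossed slides also where slide means had been taken out, so those p-values may be too small. The fit was tested on simulated data. The mice were separate animals. Same-numbered WT and Per3-/- arrays were not paired by the labels, and their deviations correlated between -0.20 and 0.40 in the hypothalamus and between 0.0019 and 0.68 in the eye, where 5 of 6 pairs exceeded 0.1. The members, lists and alternatives were chosen with earlier results of these data known. Named genes were all member probes, receptors of the member peptides and any list gene called for genotype. For genes with several probes, the probe of highest mean hypothalamic signal was used. One marker gene is not reported here.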

Additional observations from a re-analysis of the deposited data

Results flagged for a closer look

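In 6 of the 40 groups of arrays examined (10 probes in 2 tissues and 2 genotypes), 1 array lay farther from its group than Dixon's 95% limit allows, where chance marks about 1 group in 20. Pomc in the hypothalamic block of Per3-/- mouse 1 was 8.66, with the other 7 Per3-/- blocks between 1.71 and 2.93. Npy in the block of Per3-/- mouse 7 was 2.37, with the others between 0.73 and 1.22. Pomc in the eye of Per3-/- mouse 2 was 1.81, with the other 6 Per3-/- eyes between -0.97 and -0.35. Each of these 3 arrays also carried the marker genes of another tissue named in the report, pituitary, olfactory bulb and liver in turn, and their part in these levels was not tested.

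The other 3 were smaller. Npy in the eye of WT mouse 4 was 0.21, with the other WT eyes between -0.53 and -0.33. Cartpt read by probe B in the eye of Per3-/- mouse 5 was 1.63, with the others between 2.21 and 2.52. The overlapping probe A read 2.14 in that eye, with the others between 2.54 and 2.90, and was not flagged. Pmch in the eye of WT mouse 7 was -8.70 with the others between -8.57 and -8.49, all of them values that were not well above background.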

How the results depend on the processing

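No member probe was called for genotype in either tissue, or for the genotype by tissue difference, under quantile normalization, normexp, the filter on probes well above background, slide or replicate number as a block, the methods' unpaired test, the authors' value table or with any single mouse left out (slide as a block, the unpaired test, the value table and leaving out single mice were not run for the genotype by tissue difference). Replicate numbers were not treated as pairs, since not every same-numbered pair correlated above 0.1. Same-numbered arrays of a tissue shared a slide, so their correlation cannot tell a pairing and a slide apart. With the replicate block 0 of these probes were called in each tissue, as without it. Of all probes, 17 were called in the hypothalamus (5 with the block, 10 with normexp) and 8 in the eye (1 and 4). For the genotype by tissue difference the number went from 2 to 0 with either and to 1 with quantile normalization. Signs of differences that were not called did turn. Without Per3-/- mice 1 and 7 the hypothalamic differences were -0.14 for Pomc, -0.078 for Npy and 0.070 for Mc4r. In the eye, Pomc was -0.10 with the replicate block and -0.11 without mouse 2, Hcrt 0.17 with normexp, 0.033 with the replicate block and 0.020 without mouse 2, Cartpt probe B -0.037 with normexp and Pmch -0.0054 with quantile normalization. For the genotype by tissue difference, Pomc was -0.44 with the mouse as a fixed replicate block and -0.028 without the 3 arrays, Npy -0.11 without them, and Mc3r probe A -0.016 with normexp, -0.021 with the mouse block and -0.10 without the 3 arrays. With single mice left out, the hypothalamic differences that turned ranged from -0.27 to 0.72 for Pomc, from -0.18 to 0.00095 for Agrp, from -0.069 to 0.17 for Npy and from -0.031 to 0.030 for Mc4r. Those in the eye ranged from -0.11 to 0.35 for Pomc, -0.086 to 0.19 for Agrp, -0.025 to 0.10 for Npy, -0.018 to 0.13 for Cartpt probe B, -0.012 to 0.16 for Pmch, -0.10 to 0.082 for Hcrt, -0.061 to 0.31 for Mc3r probe B and -0.017 to 0.15 for Mc3r probe A.

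Between tissues 9 of 10 probes were called under the settings run, except for 8 with normexp, where Mc3r probe B was lost at 0.08. Mc4r turned to 0.21 with quantile normalization without being called. Quantile normalization also moved the share of all called probes that were higher in the hypothalamus from 42.4% to 53.6%.

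The number of gene pairs that passed was 0 over the 16 blocks, 1 within WT mice, 2 without Per3-/- mice 1 and 7 (0 by Spearman's rho), and from 0 to 2 with single mice left out. Pomc and Agrp turned to -0.13 with slide means removed and ranged from 0.29 to 0.77 with single mice left out. Agrp and Npy turned to -0.0067 with normexp, -0.27 within Per3-/- mice and -0.11 without the 2 farthest mice, and ranged from -0.10 to 0.78. Pomc and Npy had r = -0.17 over all blocks and rho = 0.05, 0.78 within WT mice, 0.45 without mice 1 and 7 (rho 0.31, r = 0.0012 with slide means removed, 0.22 without the 2 farthest of the rest), and ranged from -0.42 to 0.16 with single mice left out. For Pomc the 2 farthest mice were mice 1 and 7, so that leaving out the farthest gave the same 0.45 and is not a separate check. With the replicate block, r was 0.33 for Pomc and Agrp and 0.23 for Agrp and Npy (n = 8 differences, exact permutation p = 0.262 and 0.530). Of the relations to marker lists, 1 passed with quantile normalization (Agrp with the tuberal list, r = 0.78, adjusted p = 0.012) and 3 with slide means removed (Pomc and Mc3r with the pituitary list, r = 0.94 and 0.83, and Mc4r with the lateral hypothalamic list, 0.64). Those 3 passed by permutation p-values that ignore the slide terms. With slide means kept and mice 1 and 7 left out, r for them was 0.21, 0.30 and 0.25 (permutation p = 0.544, 0.332 and 0.427). Without mice 1 and 7 and the 2 farthest of the rest, Pomc with the pituitary list was -0.64. In every setting run, 9 of 10 probes varied more between blocks than the median probe. The causes of these changes were not tested. The number of arrays limits the precision throughout, and probes near background, Pmch and Mc3r probe B in the eye, do not measure a level firmly.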
